A study of Homo sapiens with 20 samples.

Results

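The cytosolic ribosomal protein genes were taken as the genes whose symbol is RPL or RPS followed by a number, with or without a final A or X, together with the stalk genes and RPSA. Of the 19775 genes that the arrays measured with probe sets of a single gene, 52 met this rule: 30 of the large ribosomal subunit, 20 of the small subunit, and the stalk genes RPLP1 and RPLP2. All 52 were among the 13787 genes tested. Each gene was read through its brightest single-gene probe set, the group of short probes that reports one transcript. RPL5, RPL10, RPLP0, RPSA and RPS27A had no single-gene probe set and did not enter by this rule. The same held for further genes, such as RPL4, RPL13 and RPS2. At the end, 14 left-out genes, RPL5 and RPL10 among them, are read from probe sets that carry more than 1 gene name. RPLP0, RPSA and RPS27A were not analysed here.

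The study used 5 established human lines of T-ALL, acute lymphoblastic leukaemia of the T lineage: T-ALL1 (TALL-1 in another label), KOPT-K, HPB-ALL, DND41 and CEM. Every line received, for 16 h, either a control peptide, whose sequence is not given in the sources used here, or NBD peptide. The latter copies the NEMO-binding domain and keeps the regulatory subunit of the IkB kinase away from its catalytic subunits, so that canonical NF-kB signalling is blocked. There were 2 arrays per line and peptide, 10 groups and 20 arrays in all. The dose is given both as 100 µM and as 100 mM, and no statement here rests on it. Whether both arrays of a group stem from different cultures is not stated, and the p-values therefore cover only array-to-array spread, possibly of technical origin.

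Ribosomal proteins assemble with ribosomal RNA into the small subunit, which decodes messenger RNA, and the large subunit, which joins amino acids. The stalk proteins recruit elongation factors to the large subunit. Cells make these proteins in matched amounts, and most of their messenger RNAs start with a C followed by a run of pyrimidines. This terminal oligopyrimidine (TOP) tract lets the mTOR kinase and the RNA-binding protein LARP1 set how strongly the messenger is translated, a step that arrays of total RNA do not read. Outside the ribosome, RPL11 and RPL5 bind the p53 ligase MDM2 when assembly is disturbed. RPL22 is needed for the development of alpha-beta T cells, and it is known for deletions and mutations in T-ALL, as RPL5, RPL10 and RPL11 are for mutations.

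The start sites of the genes on which the results below turn are shown here because the TOP tract is the sequence feature these genes share. The sequences are from RefSeq on GRCh38.p14, 15 bases on each side of the listed start, 5′ to 3′ on the transcribed strand. Capitals mark a C and the pyrimidines that follow it without a break. The windows lie at chr1:6199581-6199610 (RPL22, minus strand), chr1:23691791-23691820 (RPL11, plus), chr22:39319609-39319638 (RPL3, minus), chr9:127451392-127451421 (RPL12, minus), chr2:101002274-101002303 (RPL31, plus), chr3:51995881-51995910 (RPL29, minus), chrX:101390996-101391025 (RPL36A, plus), chr9:19380222-19380251 (RPS6, minus), chr15:69452803-69452832 (RPLP1, plus) and chrX:72277234-72277263 (RPS4X, minus, shown as a gene with no such tract at its listed start).
RPL22: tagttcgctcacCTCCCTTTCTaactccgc
RPL11: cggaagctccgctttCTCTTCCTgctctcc
RPL3: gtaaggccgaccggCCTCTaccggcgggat
RPL12: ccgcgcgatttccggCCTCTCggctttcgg
RPL31: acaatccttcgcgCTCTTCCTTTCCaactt
RPL29: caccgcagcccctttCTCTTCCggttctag
RPL36A: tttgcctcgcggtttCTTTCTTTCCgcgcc
RPS6: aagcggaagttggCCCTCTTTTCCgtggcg
RPLP1: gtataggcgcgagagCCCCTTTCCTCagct
RPS4X: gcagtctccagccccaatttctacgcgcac

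A tract, defined as a C within 3 bases of a listed start followed by at least 4 pyrimidines, was present in 40 of the 46 ribosomal protein genes with an entry (87.0%), against 4374 of 27305 genes in the same table (16.0%). RPL27, RPL6, RPL9, RPS15, RPS29 and RPS4X had none near a listed start. RPL23A, RPL30, RPL37, RPL7, RPL8 and RPS15A had no entry. Translation factors and other genes of the TOP class carried the tract in 13 of 14 cases (92.9%). Mitochondrial ribosomal protein genes, which serve the ribosome of another compartment, carried it in 9 of 69 (13.0%). In the window from 250 bases before to 50 bases after the start, searched on both strands, the ETS-type motif CCGGAAG was found in 17 of the 46 (37.0%) against 12.2% of all genes. The E-box CACGTG, the letters bound by MYC, was found in 6.52% against 8.77%, the TATA box TATAAA in 6.52% against 14.0%, the YY1-type GCCATCTT in 8.7% against 3.52%, and the GC box GGGCGG in 56.5% against 48.3%. Such a match is a description of the letters and not evidence that a factor binds there.

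The RNA signal of these genes stood near the top of the arrays. For 49 of the 52, the mean log2 intensity over the 20 arrays was 13.13 to 14.70, with RPL41, a very short protein of the large subunit, at the upper end. The brightest probe set on any array read 14.8, so these genes had little room above them, and whether their signal was saturated was not tested. The other 3 genes were read through dim probe sets, RPL27A at 7.97, RPLP2 at 5.85 and RPL36A at 5.36, because their bright probe sets also carry the name of a hosted small RNA or of a readthrough transcript. Repeat arrays lay close together. The median SD between the 2 arrays of a group was 0.0312 for the 49 bright genes and 0.12 for all genes tested. The lines carried T lineage markers: all 8 on the array reached the filter, which asks for at least 2 arrays. CD3D, part of the T cell receptor complex, read 12.31 to 14.16. Not every marker was high on every array, as CD2 read 4.06 to 9.74 and CD5 4.37 to 8.89. Of other lineages, 5 of 6 B cell, 2 of 6 myeloid and 5 of 8 fibroblast and epithelial markers reached the filter. Their summed intensity per array was 200 to 3260, 111 to 181 and 259 to 391, against 10500 to 33500 for the T lineage. The B lineage marker CD79A read 4.78 to 11.46.

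The first comparison asked whether NBD peptide changed ribosomal protein RNA against control peptide, averaged over the 5 lines. Whether NF-kB signalling was blocked in these cells was not examined here. No gene of the 52 passed limma's test at an adjusted p of 0.05, with 0 higher and 0 lower, while 8.38% of all genes tested did (2.24% higher, 6.14% lower). Of all genes, 309 were higher and 847 lower, or 720 and 436 with each array centred on its median, and the count for the 52 was 0 and 0 in both scalings. At an unadjusted p under 0.05 the count was 0 of 52, against 3006 of 13787. The NBD minus control difference lay above 0 for 20 genes and below 0 for 32, with a median of -0.002 on the log2 scale (all genes, -0.010). The 49 bright genes lay between -0.045 and 0.027, with standard errors of 0.024 to 0.037. Their 95% intervals ran from -0.112 at the lowest to 0.088 at the highest, so all 49 were inside 0.2 in either direction.

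**Figure D1:**
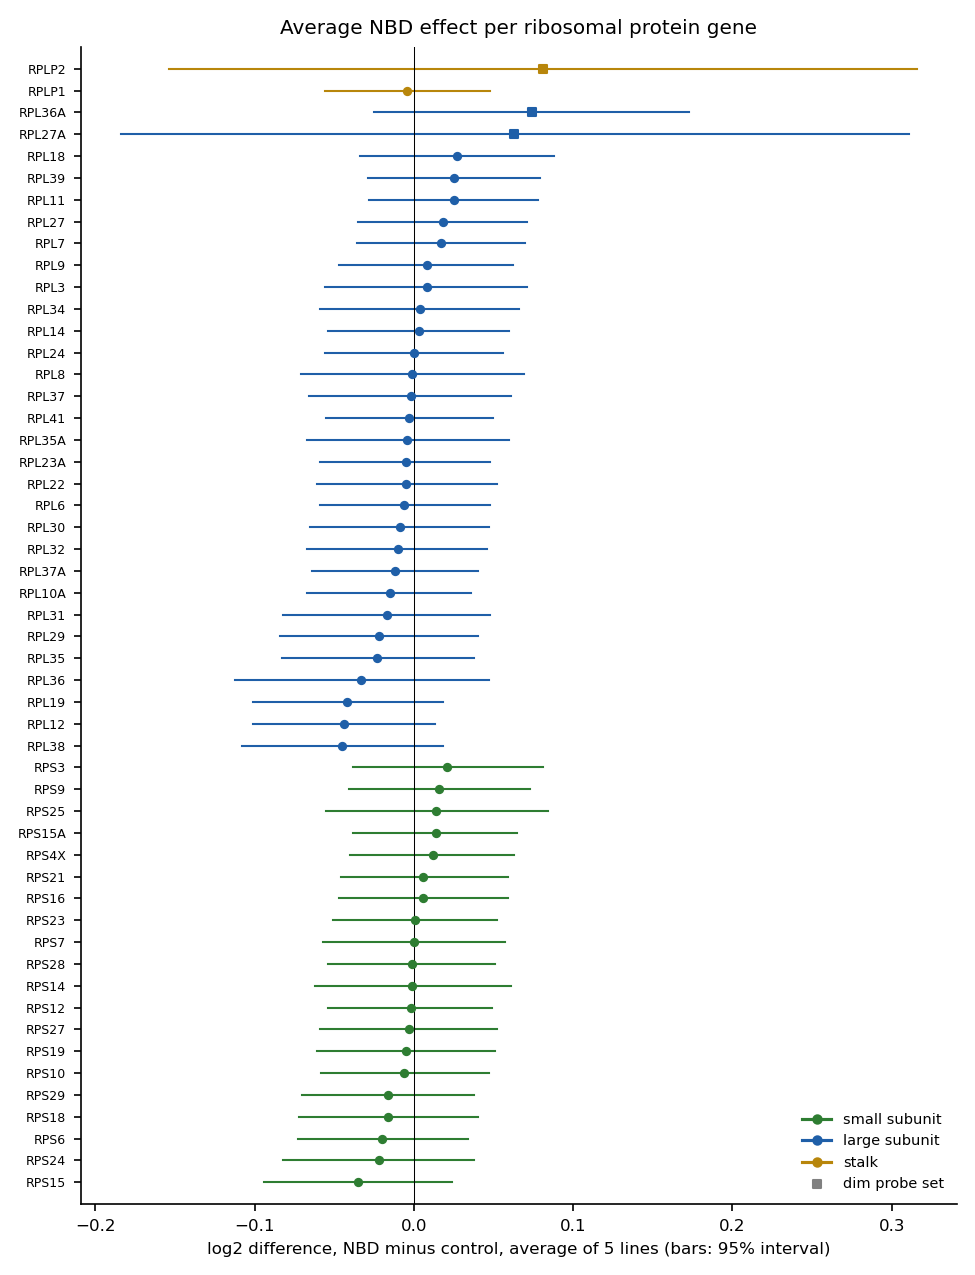
Average NBD effect of each of the 52 genes (horizontal axis: log2 difference NBD minus control, mean of 5 lines, bars are 95% intervals; colours are the subunit, squares the 3 dim probe sets). The bright genes cluster between -0.045 and 0.027, every interval crosses 0, and the widest intervals belong to RPLP2 and RPL27A.

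The subunits were described apart, with no test of a difference between them. The 28 bright large-subunit genes had a median average effect of -0.004 (SD over genes 0.020) and the 20 small-subunit genes -0.001 (SD 0.014). By line the medians of the large and the small subunit were -0.032 and -0.033 in CEM, 0.033 and 0.032 in DND41, 0.024 and 0.011 in HPB-ALL, -0.027 and -0.011 in KOPT-K, and -0.035 and -0.002 in T-ALL1. In the large subunit, the lowest values were those of RPL38 at -0.045, RPL12 at -0.044 and RPL19 at -0.042, and the highest among bright genes those of RPL18 at 0.027, RPL11 at 0.025 and RPL39 at 0.025. In the small subunit the range was -0.035 for RPS15 to 0.021 for RPS3. The stalk gene RPLP1 was at -0.004. From a chosen list of 15 genes altered in Diamond-Blackfan anaemia, an inherited failure of red cell production, 10 were measured. Of these, 0 passed the test (median -0.004). RPL39 was the one gene above 0 in all 5 lines, by 0.010 to 0.049, and RPL37A the one below 0 in all 5, by at most -0.025. Together they are 3.85% of the 52, against 13.1% of all genes with 1 sign throughout.

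Individual arrays are given for genes at different distances from the top of the scale. RPL41 read 14.69 and 14.69 on the T-ALL1 control arrays and 14.70 and 14.73 with NBD, and its other 16 arrays lay between 14.65 and 14.80. The brightest probe set of an array read 14.70 to 14.80, so these readings are at the ceiling and say little about a change in its RNA. RPLP1 in HPB-ALL read 14.53 and 14.53 in control and 14.53 and 14.56 with NBD. RPL11 read 13.87 and 13.84 in DND41 control and 13.95 and 13.93 with NBD, a separation of 0.087 ± 0.055 (SE; n = 2 per peptide) that did not pass the test (limma adjusted p = 0.522). Its arrays lay closer together in the other lines, with differences of -0.035 to 0.049.

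**Figure D2:**
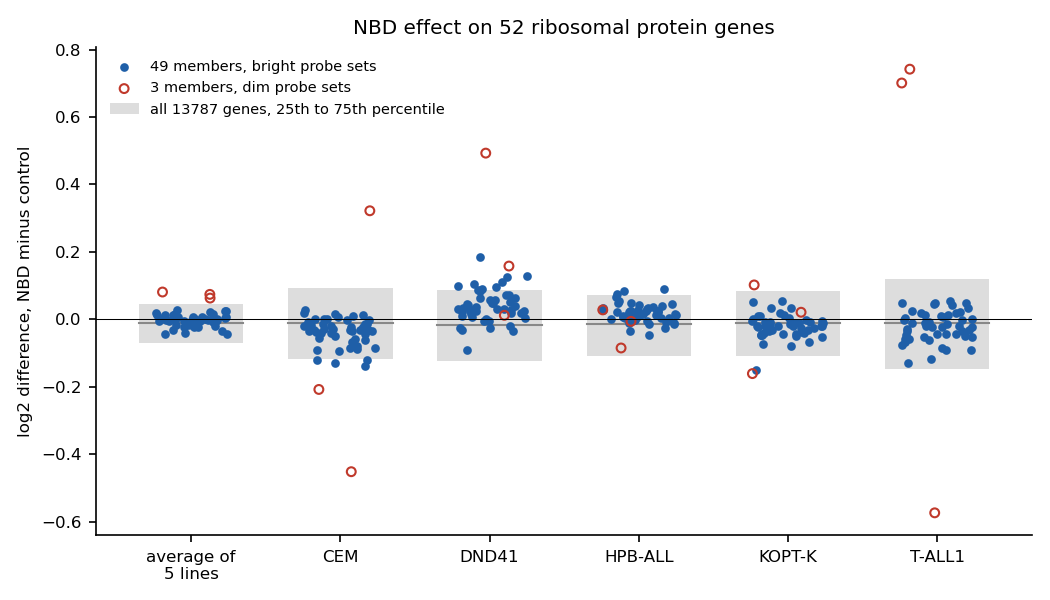
NBD minus control (vertical axis, log2) for the 52 genes as the average and in each line; blue points are the 49 bright genes, red circles the 3 dim probe sets, grey boxes the 25th to 75th percentile of all 13787 genes with their median as a line. Blue points lie mostly below 0 in CEM and KOPT-K and mostly above 0 in DND41 and HPB-ALL, and the points past 0.3 in either direction are all red.

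Within single lines, small shifts ran across many ribosomal protein genes at once, and their sign differed between lines. In DND41, 44 of 52 genes lay above 0, with a median of 0.032, and in HPB-ALL 39 of 52, with a median of 0.015. In CEM 42 of 52 lay below 0, with a median of -0.032, in KOPT-K 40 of 52, with -0.020, and in T-ALL1 33 of 52, with -0.020. The median of all genes was -0.017 to -0.012 in every line. Relative to it, the genes stood 0.049 higher in DND41 and 0.030 higher in HPB-ALL, and 0.021 lower in CEM, 0.008 lower in KOPT-K and 0.008 lower in T-ALL1. Under quantile normalization the KOPT-K value turned to 0.018 higher, while the other 4 kept their side. Median centring of each array moved the median of all genes to 0.086 in CEM and 0.097 in T-ALL1, and with it the median of the 52 to 0.065 and 0.090. The sign of the members' own median thus turned with the scaling in these lines. The value relative to all genes was 0.049 in DND41 and 0.030 in HPB-ALL as deposited, and 0.052 and 0.022 under quantile normalization. Median centring shifts all genes of an array alike, so it cannot change that relative value. The T-ALL1 direction was also not stable: the median was 0.064 with the actin 3′ to 5′ difference, a measure of RNA integrity, as a covariate (39 of 52 above 0, all genes at 0.051) and 0.003 without T-ALL1 control array 1 (28 of 52).

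Read through bright probe sets, the spread between the genes was narrow. Over the 49 bright genes, the SD of the NBD effect was 0.040 in CEM, 0.049 in DND41, 0.028 in HPB-ALL, 0.034 in KOPT-K and 0.045 in T-ALL1, while over all genes it was 0.169 to 0.232. The limma standard error of a single gene's effect in a line, 0.054 to 0.082, was larger than each SD over the bright genes. That error borrows from the spread of all genes, and the bright genes' own median SD between repeat arrays was 0.0312. It therefore does not show that the genes differed by array noise alone. The genes' order was not shared between lines. Over the 49 genes, the effects in a pair of lines correlated at r = -0.322 to 0.268, where all genes gave -0.0780 to 0.337. These are descriptions over genes that share arrays, not tests, and all genes were not matched to the bright ones in signal. The narrow spread depended on the probe sets read. With probe sets lacking a cross-matching suffix, where a gene has one, 47 members were tested. The SDs were then 0.203 in CEM, 0.137 in DND41, 0.114 in HPB-ALL, 0.142 in KOPT-K and 0.248 in T-ALL1. These include dim readings, so they stand beside the SDs over all 52 genes on the chosen probe sets. Those were 0.089 in CEM, 0.080 in DND41, 0.031 in HPB-ALL, 0.042 in KOPT-K and 0.171 in T-ALL1. The suffix choice also moved bright genes to dim probe sets, such as RPS27 to one at 5.08 and RPL37 to one at 7.62.

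Few of the 52 genes passed the test in a line. The counts were 0 higher and 0 lower in CEM (background 0.392% and 0.74%), 1 higher and 0 lower in DND41 (0.733% and 1.74%), 0 and 0 in HPB-ALL (0.138% and 0.646%), 0 and 0 in KOPT-K (0.892% and 0.384%), and 0 higher and 1 lower in T-ALL1 (1.15% and 2.3%). Both calls were RPL36A, a large-subunit protein encoded on the X chromosome. One gene of 52 is 1.92%, close to those backgrounds. Where no gene passed, the largest effects were RPL36A at 0.322 (adjusted p = 0.179) and RPL27A at -0.452 (0.481) in CEM. In HPB-ALL they were RPL14 at 0.090 (0.694) and RPLP2 at -0.085 (0.965), and in KOPT-K RPL36A at 0.102 (0.784) and RPLP2 at -0.161 (0.876). The largest downward value in DND41 was that of RPL38, at -0.091 (0.590).

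RPL36A was read by a dim probe set. In DND41 it read 5.16 and 5.18 in control and 5.61 and 5.71 with NBD, a rise of 0.493 ± 0.103 (limma adjusted p = 0.0240). In T-ALL1 it read 6.18 and 6.01 in control and 5.56 and 5.49 with NBD, and it fell by 0.574 ± 0.103 (0.0132). In both lines the NBD arrays lay clear of the control arrays. CEM control arrays, at 4.62 and 4.78, were below its NBD arrays at 4.94 and 5.10, while KOPT-K (5.64 and 5.50 against 5.83 and 5.52) and HPB-ALL (5.10 and 5.09 against 5.15 and 5.10) lay within 0.102 of each other on average. The effect differed between lines by limma's F-test (adjusted p = 0.0128). This was 1 of the 52 genes (1.92%), where 1.83% of all genes passed.

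The brighter probe set of RPL36A, which also names the readthrough RPL36A-HNRNPH2, did not show these changes. There the difference was 0.088 in DND41 (limma adjusted p = 0.632) and -0.093 in T-ALL1 (0.462). RNA integrity moved with the T-ALL1 value: the actin signal at the 3′ end exceeded that at the 5′ end, in log2 units, by 2.61 ± 0.78 (SD, n = 2) in T-ALL1 control and 1.03 ± 0.05 with NBD, but 1.42 ± 0.05 and 1.27 ± 0.08 in DND41. With it as a covariate, the T-ALL1 effect was -0.347 (adjusted p = 0.490), no F-test passed, and the DND41 effect was 0.515 (0.0152). The T-ALL1 call was lost without T-ALL1 control array 1, NBD array 1 or NBD array 2, and the DND41 call without any 1 of the 4 DND41 arrays. The effect ranged over -0.660 to -0.488 and 0.443 to 0.543 in these fits.

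The other dim probe sets read higher with NBD in T-ALL1, but neither passed the test. RPL27A, a large-subunit protein, read 7.34 and 7.52 in T-ALL1 control and 8.44 and 7.90 with NBD, a difference of 0.742 ± 0.257 (limma adjusted p = 0.123). RPLP2, a partner of RPLP1 in the stalk, read 5.59 and 6.08 and then 6.66 and 6.41, a difference of 0.701 ± 0.244 (0.125). Without T-ALL1 control array 2, RPLP2 passed the test (0.949, adjusted p = 0.0337). Their bright shared probe sets gave -0.071 (0.496) and -0.077 (0.482) in T-ALL1. The T-ALL1 actin values above stand beside these results too. For each of the 3 genes the dim and the bright probe sets thus differed in size, and for RPL27A and RPLP2 also in sign.

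After RPL36A, the lowest p-values of the test between lines belonged to RPL3, RPL27A, RPL12, RPLP2 and RPS9, and none of the 5 passed. RPL3, which lies near the peptidyl transferase centre, read 13.28 and 13.29 in DND41 control and 13.50 and 13.44 with NBD (0.186 ± 0.066, adjusted p = 0.185). In CEM it read 13.30 and 13.26 and then 13.11 and 13.17 (-0.139 ± 0.066, adjusted p = 0.388). The arrays of the peptides were apart in both lines and in opposite directions, with an adjusted p of 0.241 for the difference between lines. RPL12, at the base of the stalk, went from 13.56 and 13.65 to 13.48 and 13.43 in KOPT-K (-0.149 ± 0.059, adjusted p = 0.323) and from 13.43 and 13.43 to 13.49 and 13.46 in DND41, with 0.376 for the difference between lines. RPS9, a small-subunit protein, differed by 0.127 in DND41 and -0.086 in CEM (0.484 between lines). The values for RPL27A and RPLP2 were 0.338 and 0.394. With a trended robust prior for the spread, RPL3 (0.0248) and RPL12 (0.0474) passed the test between lines. DND41 then had 4 of the 52 called higher in place of 1, and 174 of all 13787 genes in place of 101.

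Differences between lines were called in many of these genes. Levels were compared only within CEM, DND41 and HPB-ALL and within T-ALL1 and KOPT-K, whose columns appear to have been normalized apart. Averaged over both peptides, 30 of 52 genes (57.7%) differed between CEM, DND41 and HPB-ALL, where 70.3% of all genes did. Between T-ALL1 and KOPT-K 25 of 52 (48.1%) differed, where 60.3% of all genes did. On the chosen probe sets the differences were small next to those of all genes. Their SD over the 52 was 0.145 to 0.182 for the 4 pairs of lines, and over all genes 0.915 to 1.05. Most of the 52 were read near the top of the scale, and they were not compared with equally bright genes. For some of them, such as RPL22 and RPL31 below, dimmer probe sets gave larger differences between lines.

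**Figure D3:**
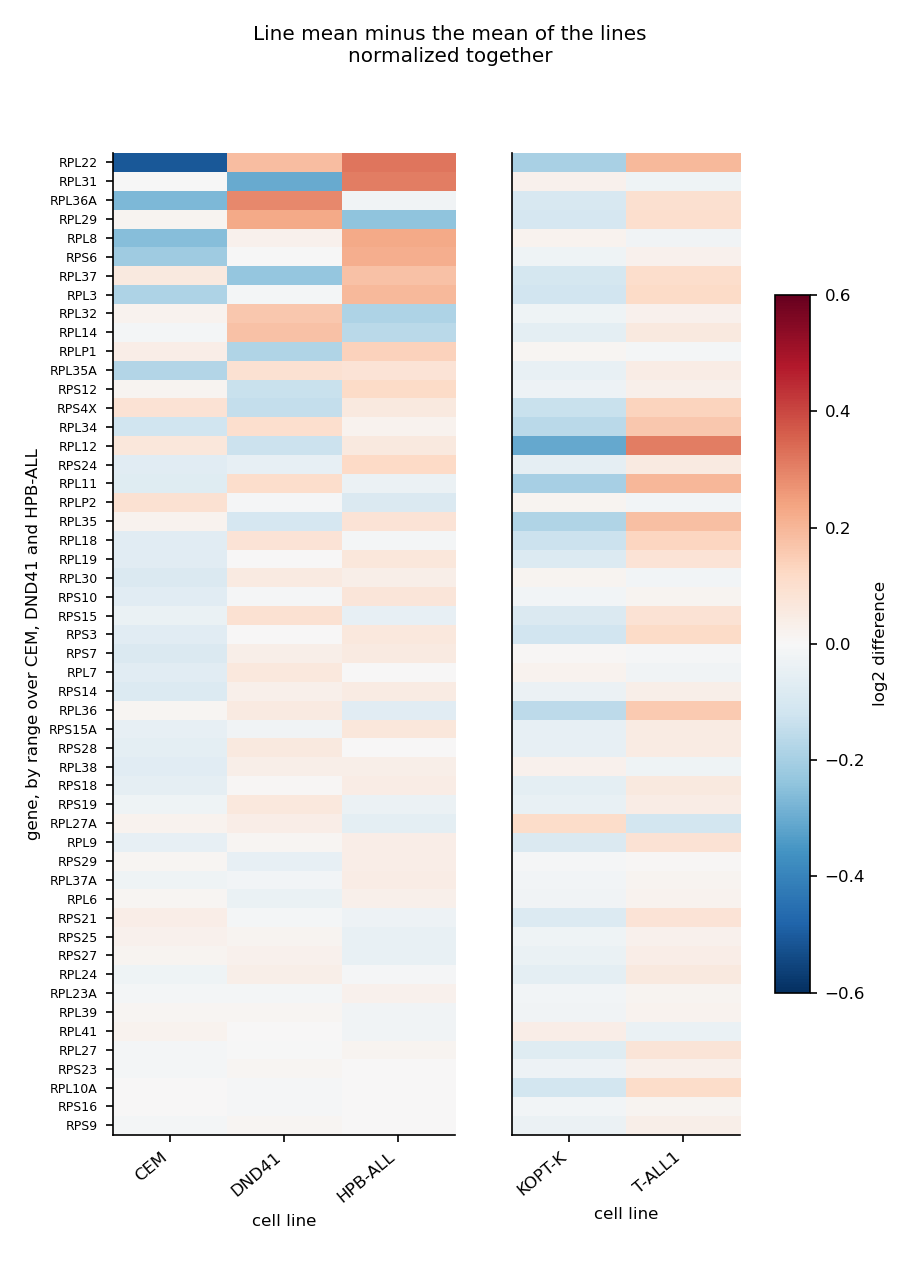
Mean log2 signal of each gene in a line (4 arrays) minus the mean of the lines normalized together, CEM, DND41 and HPB-ALL on the left and KOPT-K and T-ALL1 on the right; rows are the 52 genes ordered by their range over the first 3 lines, and the colour bar gives the log2 difference. RPL22 has the widest range on the left, with CEM lowest, and RPL12 on the right, with T-ALL1 above KOPT-K.

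RPL22 had the widest range on the probe sets that the rule chose. Its CEM arrays read 12.83 and 12.86 in control and 12.78 and 12.84 with NBD. All 4 DND41 arrays lay between 13.51 and 13.53, and those of HPB-ALL between 13.59 and 13.69, so that CEM stood apart from both without overlap. CEM was 1.62-fold below DND41 (-0.70 ± 0.04 on the log2 scale, limma adjusted p = 3.29e-09) and 1.78-fold below HPB-ALL (-0.83 ± 0.04, 3.94e-10). DND41 was 1.10-fold below HPB-ALL (0.0116). T-ALL1, with 14.06 to 14.12, was 1.31-fold above KOPT-K, with 13.67 to 13.70 (0.39 ± 0.04, 1.33e-06). NBD left it at -0.005 ± 0.026 on average.

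All 5 single-gene probe sets of RPL22 were lower in CEM than in DND41, by 1.46- to 2.35-fold, and than in HPB-ALL, by 1.55- to 3.02-fold. The ratios of the 2 dimmer probe sets were the larger ones (2.20 and 2.35 against DND41, 3.02 and 2.12 against HPB-ALL). The probe sets did not give 1 answer for T-ALL1 against KOPT-K. The 3 bright ones put T-ALL1 higher by 0.29 to 0.39, while the dimmer ones gave 0.06 (limma adjusted p = 0.540) and 0 (0.981). The difference between DND41 and HPB-ALL was -0.45 on one of the dimmer ones (1.45e-05) and 0.14 on the other (0.175).

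The paralog RPL22L1, which can take the place of RPL22 in the ribosome, had another order of lines. It read 12.09, 12.13, 11.96 and 11.94 in CEM, 11.24 to 11.30 in DND41 and 9.88 to 9.95 in HPB-ALL. CEM was thus the highest of the 3 for RPL22L1 and the lowest for RPL22. Its level was 2.13 ± 0.06 above HPB-ALL on the log2 scale (limma adjusted p = 5.07e-13) and 0.75 ± 0.06 above DND41 (5.79e-08). In the other pair, T-ALL1 was below KOPT-K for RPL22L1 (-2.55 ± 0.06, 4.85e-14), while RPL22 on its brightest probe set was above it. Its average NBD effect was -0.099 ± 0.037 (adjusted p = 0.119).

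**Figure D4:**
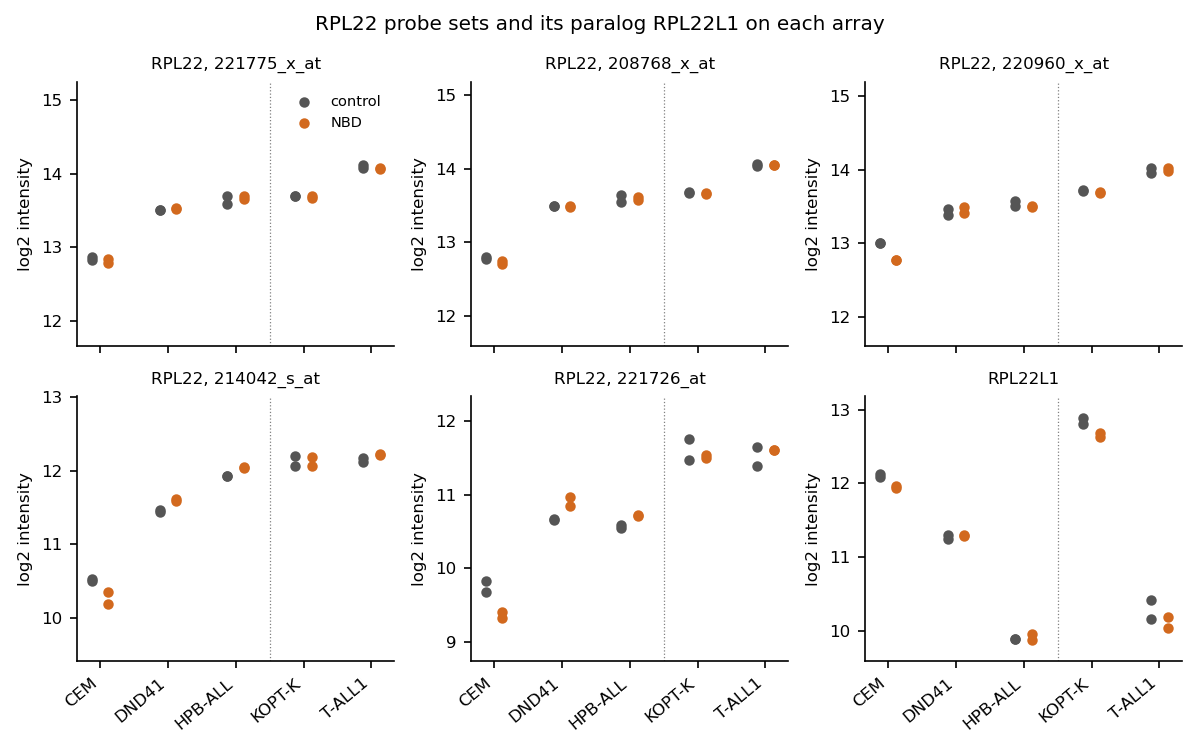
Log2 intensity of the 5 RPL22 probe sets and of RPL22L1 on each array (horizontal axis: line; grey, control; orange, NBD; every panel spans 3.6 log2 units; the dotted line parts lines that appear normalized apart). CEM is the lowest line in all 5 RPL22 panels and lies above DND41 and HPB-ALL in the RPL22L1 panel.

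Other large-subunit genes ordered the lines differently. RPL31 was lowest in DND41, at 13.63 to 13.81 on the 4 arrays, against 14.00 to 14.06 in CEM and 14.33 to 14.37 in HPB-ALL, and the 3 lines did not overlap. On this brightest probe set DND41 was 1.53-fold below HPB-ALL (limma adjusted p = 5.29e-08). The dimmer RPL31 probe sets also put DND41 lowest of the 3, with wider gaps. Their line means were 6.51 and 7.97 in DND41 against 10.03 and 9.39 in HPB-ALL, so the size depended on the probe set. RPL29 was lowest in HPB-ALL, at 13.21 to 13.30, and highest in DND41, at 13.71 to 13.77, a 1.39-fold difference (4.46e-07), with CEM between them at 13.45 to 13.58. RPL8 was lowest in CEM, at 12.95 to 13.08, and highest in HPB-ALL, at 13.46 to 13.57 (1.39-fold, 1.68e-06). The dim RPL36A probe set read 4.62 to 5.10 in CEM, around the filter's limit of 5, so no size is given for its lower level there, and its bright shared probe set put DND41 lowest, at 13.62, and HPB-ALL highest, at 13.88. In the small subunit RPS6, the protein phosphorylated by the mTOR-dependent S6 kinases, was lowest in CEM, at 13.91 to 14.10, and highest in HPB-ALL, at 14.40 to 14.43 (1.34-fold, 3.07e-07).

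In the pair of T-ALL1 and KOPT-K the called differences ran one way. All 25 genes that differed were higher in T-ALL1 and 0 were lower, where 33.9% of all genes were higher and 26.5% lower. The count was 20 higher and 0 lower under quantile normalization, 19 and 0 under median centring, 16 and 0 on the NBD arrays alone and 20 and 0 on the control arrays alone. The median difference over the 52 genes was 0.086, and over all genes 0.041. It was 0.088 against 0.006 on the control arrays alone, but 0.089 against 0.085 on the NBD arrays alone, where the 52 hardly stood above all genes. RPL12 led, at 14.18, 14.16, 14.09 and 14.14 in T-ALL1 and 13.56, 13.65, 13.48 and 13.43 in KOPT-K, a 1.53-fold difference without overlap (0.62 ± 0.04, limma adjusted p = 9.60e-09). RPL11 was higher by 0.40 ± 0.04 (5.26e-07), RPL35 by 0.37 ± 0.05 (5.19e-06), RPL34 by 0.32 ± 0.05 (2.50e-05) and RPL36 by 0.31 ± 0.06 (3.18e-04). RPL31, RPL8 and RPS6, which differed in the other lines, were at -0.04, -0.03 and 0.05 here and did not pass. The actin difference of the T-ALL1 control arrays, 3.16 and 2.05, stood above that of the 4 KOPT-K arrays, 0.73 to 1.14, while the T-ALL1 NBD arrays, at 1.07 and 0.99, lay within it. Whether RNA integrity has a part in the differences between these lines was not tested.

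Among CEM, DND41 and HPB-ALL the calls leaned less far. CEM was higher than DND41 in 7 genes and lower in 17 (background 26.5% and 24.6%), higher than HPB-ALL in 3 and lower in 20 (29.9% and 28.3%). DND41 was higher than HPB-ALL in 6 and lower in 13 (28.3% and 28.1%). These counts followed the scaling and the arrays used. For CEM against HPB-ALL they were 3 and 13 under quantile normalization and 2 and 29 under median centring. For CEM against DND41 they were 7 and 6 on the control arrays alone and 4 and 14 on the NBD arrays alone.

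Genes around the cytosolic ribosome were set beside these results. Of 75 mitochondrial ribosomal protein genes, 0 rose and 15 fell on average (median -0.062, all genes -0.010), where 6.14% of all genes fell. In the same comparison 4 of the 8 T lineage markers fell, among them CD3D (-0.449, limma adjusted p = 1.50e-06), and none of the markers of other lineages passed. MRPL24 fell by 0.234 ± 0.039 (limma adjusted p = 0.00226), MRPL40 by 0.232 ± 0.030 (4.69e-04), MRPS16 by 0.230 ± 0.032 (7.56e-04) and MRPS14 by 0.191 ± 0.031 (0.00218), the first 2 of the large and the others of the small mitochondrial subunit. MRPL40 read 9.78 and 9.78 in DND41 control and 9.50 and 9.51 with NBD, and no array of the peptides overlapped in any of the 5 lines. Median centring left 5 lower and 2 higher. Of 18 translation factors and other TOP genes, 0 rose and 0 fell (median 0.022). EIF4B, which aids the eIF4A helicase, was at 0.128 (limma adjusted p = 0.497). Its average leaned on T-ALL1 control array 1, at 10.05 against 11.12 on the other control array and 11.11 and 11.09 with NBD. The EIF4B difference was 0.512 in T-ALL1 and -0.102 to 0.112 in the other lines. EIF2S3, a subunit of the initiation factor that brings initiator tRNA, was at -0.091 (0.0645). By line, 16 of 18 lay above 0 in DND41 (45.5% of all genes), 18 of 18 in HPB-ALL (45.8%), 2 of 18 in CEM (46.8%), 9 of 18 in KOPT-K (46.6%) and 9 of 18 in T-ALL1 (47.3%).

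Of 8 paralogs and fusion genes outside the rule, 0 rose and 0 fell (median -0.006). FAU, which encodes a ubiquitin-like protein fused to the small-subunit protein eS30, was at 0 ± 0.027, and RPL39L, a paralog of RPL39, at 0.116 (limma adjusted p = 0.489). Among 16 regulators of ribosomal protein synthesis, 2 fell. EEF2K, the kinase that inhibits elongation factor eEF2, fell by 0.219 ± 0.037 (0.00290). MYC, a transcription factor that drives ribosome production, fell on average (-0.50, adjusted p = 0.00530). By line the largest MYC difference was in DND41, from 9.65 and 9.65 to 8.52 and 8.71 (-1.04, adjusted p = 0.0209), where 44 of 52 ribosomal protein genes lay above 0. MYC differed by -0.714 in KOPT-K (0.156), -0.479 in CEM (0.345), -0.233 in HPB-ALL (0.807) and -0.036 in T-ALL1 (0.945).

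Reading the genes through probe sets that also name a hosted small RNA, a pseudogene or a readthrough transcript added 14 genes. It replaced the 3 dim readings and moved RPL3 and RPL23A to other bright probe sets. RPL17, an added gene, was itself read dimly, at 6.16. None of the resulting 66 genes passed the test in the average or in any line. Their average effects had a median of -0.003 and an SD of 0.019. All 14 added genes lay above 0 in DND41, and 3 of 14 did in CEM. RPL5, the partner of RPL11 in MDM2 binding, was at 0.038 on average (limma adjusted p = 0.583), with line means of 13.98 in CEM, 13.71 in DND41, 13.98 in HPB-ALL, 13.81 in KOPT-K and 14.07 in T-ALL1. RPL10 was at 0.035 (0.487), with 13.85, 13.77, 14.01, 13.78 and 14.10 in the same order. Both lay lowest in DND41 among the lines normalized with it, and higher in T-ALL1 than in KOPT-K.

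With the 5 lines taken as the replicates, limma called 0 of all 13787 genes (lowest adjusted p 0.126), so that the count of 0 among the 52 carries no information about them. At an unadjusted p under 0.05 the counts were 0 of 52 and 1639 of 13787.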

How the data were processed

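Transcript levels were measured on 20 Affymetrix arrays. The authors deposited linear intensity values, 1 per probe set and array, and the submitters' processing notes name RMA with no version; a genome build is not given in the sources used here. The columns of KOPT-K and T-ALL1 carry 7 decimals at most and those of the other lines 2, so 2 normalization runs appear likely. Intensities were taken to log2 without a pseudocount. Of 54675 probe sets, 41097 had 1 gene symbol in the platform table, 1801 several and 11777 none; only the first were used. Each of 19775 genes was read by its brightest probe set and kept if it reached the overall median intensity of 31.96 (log2 of 5) on at least 2 arrays, which left 13787. Arrays have no read depth, and their number limits the precision.

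Group means were fitted with limma 3.58.1 in R 4.3.3 (lmFit, eBayes; 10 residual and 3.42 prior degrees of freedom, spread shared by 10 groups), with Benjamini-Hochberg adjustment over all genes at 0.05. Line levels were tested by contrasts of the same fit. The procedure was tested on simulated data. Alternatives covered normalization, filter, probe set, replicate block, prior, actin covariate, and arrays or lines left out. The members and lists were chosen with earlier results of these data known. Named were genes past the threshold or, in lines without any, the largest in each direction, the 6 lowest p-values between lines, the 6 widest ranges between lines of a run, the ribosomal protein genes known from T-ALL or the stalk, the brightest and dimmest gene, up to 4 per comparison list, and MYC. Sequences came from RefSeq tables on GRCh38.p14. Proteins and further genome sequence were not used here.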

Additional observations from a re-analysis of the deposited data

Results flagged for a closer look

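The NBD effect on RPL36A differed between the 5 lines by a test of the difference itself (limma F-test, adjusted p = 0.0128). It was higher with NBD in DND41 and lower in T-ALL1, as read by its dim single-gene probe set. The bright probe set shared with a readthrough transcript gave an adjusted p of 0.649 for the same difference.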

How the results depend on the processing

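Members called, medians and SDs of NBD effects are on the log2 scale. Median centring moved the median effect to 0.045 on average, 0.065 in CEM, 0.075 in HPB-ALL, -0.044 in KOPT-K and 0.090 in T-ALL1, and it turned all-gene calls from 309 higher and 847 lower to 720 and 436. Requiring the filter on all 20 arrays removed RPL36A: 0 called in DND41 and T-ALL1, 0 differing between lines, SD 0.051 in DND41. With the mean of all probe sets 1 was called higher on average and 2 lower in T-ALL1. The medians were then 0.004 on average, -0.059 in CEM, 0.032 in HPB-ALL and 0 in T-ALL1, and the SDs 0.040 on average, 0.064 in HPB-ALL and 0.089 in KOPT-K. With probe sets lacking a cross-matching suffix 1 was higher on average, 2 higher in DND41, 2 lower in T-ALL1 and 2 differed between lines. The medians were then -0.040 in CEM and 0.028 in HPB-ALL, and the SDs 0.060 on average, 0.203 in CEM, 0.137 in DND41, 0.114 in HPB-ALL, 0.142 in KOPT-K and 0.248 in T-ALL1. The trended robust prior called 1 lower in CEM (RPS6), 4 higher in DND41 (RPL3, RPL36A, RPS15A, RPS4X), 1 lower in KOPT-K (RPL12) and 3 between lines; over all genes the counts for those directions rose from 102 to 149, from 101 to 174 and from 53 to 91. With the actin covariate the medians were 0.011 on average, -0.040 in CEM and 0.064 in T-ALL1, the T-ALL1 SD 0.1, with 0 lower there and 0 between lines. Without CEM, DND41, HPB-ALL and KOPT-K in turn the average median was 0.006, -0.010, -0.009 and 0.004 (SD 0.039 without CEM). Without T-ALL1 the SD was 0.041, and RPL36A was called higher (1 gene; 0.236, limma adjusted p = 0.0146). CEM, DND41 and HPB-ALL alone gave median 0.005, SD 0.048 and 1 higher (RPL36A, 0.281, 0.00981), and T-ALL1 with KOPT-K median -0.014 and SD 0.081. Chosen after seeing the data: without the 3 dim genes, 0 were called in DND41, in T-ALL1 and between lines, with SDs of 0.049 and 0.045. With shared probe sets allowed the same counts were 0 (RPL36A 0.088 and -0.093), with SDs of 0.037 in CEM, 0.047 in DND41 and 0.044 in T-ALL1.

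Same-numbered arrays deviated together with correlations of -0.281 to 0.143, so the numbers do not pair the arrays. With the replicate block 0 were called higher in DND41 (RPL36A 0.493, adjusted p = 0.054), while the T-ALL1 call remained (0.0298).

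Leaving out each array in turn gave 0 to 0 members higher and lower on average, in CEM, HPB-ALL and KOPT-K, 0 to 1 higher in DND41, 0 to 1 higher and 0 to 1 lower in T-ALL1, and 0 to 1 differing between lines. Medians ranged from -0.007 to 0.002 on average, -0.037 to -0.029 in CEM, 0.020 to 0.043 in DND41, 0.011 to 0.024 in HPB-ALL, -0.028 to -0.008 in KOPT-K and -0.031 to 0.003 in T-ALL1. SDs ranged from 0.018 to 0.036, 0.064 to 0.156, 0.076 to 0.089, 0.031 to 0.047, 0.042 to 0.085 and 0.134 to 0.216 in that order. Levels differed in 23 to 31 members between CEM, DND41 and HPB-ALL and in 18 to 25 between T-ALL1 and KOPT-K. With lines as replicates 0 of all genes and 0 of the 75 mitochondrial ribosomal protein genes were called. The cause of these changes was not tested.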

Other observations

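Probe sets of a gene did not always answer alike, and some members were called through readings that the rule did not choose. RPS15A, a small-subunit protein, rose on average by 0.144 with the mean of all its probe sets (limma adjusted p = 0.0384) and by 0.287 on its brightest probe set without a cross-matching suffix (0.0224). RPS27 fell by 0.575 and 1.13 in T-ALL1 in the same 2 readings (0.0339 and 0.0399), beside the high actin difference of the T-ALL1 control arrays. RPL37, of the large subunit, rose by 0.513 in DND41 in the second reading (0.0310). All 5 RPL22 probe sets lay below 0 in CEM with NBD, and none passed limma's test over all single-gene probe sets. The 2 dimmer ones were at -0.245 and -0.388 (limma adjusted p = 0.345 and 0.197). The bright ones were at -0.232 (0.315), -0.071 and -0.033. In DND41 the dimmer ones were at 0.153 and 0.250 (0.616 and 0.471), and the bright ones at -0.008 to 0.017. These genes were singled out after their values were seen.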
